A study of Mus musculus with 6 samples.

Results

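The nuclear-encoded genes of the respiratory chain and ATP synthase were taken by symbol from the gene table of C2C12 WT and C2C12 Myod1-/- cells. Symbols beginning with Nduf, Uqcr, Cox4 to Cox8 or Atp5 were kept, together with Sdha to Sdhd, Cyc1 and Cycs. Of the 99 symbols that matched, 6 with -ps, the mark of a pseudogene, were dropped. This left 93 of the 28892 genes in the table. They comprise 36 subunits and 8 assembly factors of complex I, 4 subunits of complex II, 10 genes of complex III and cytochrome c, 19 of complex IV and 16 of complex V.

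The respiratory chain passes electrons from NADH and succinate through complexes I to IV to oxygen and pumps protons across the inner mitochondrial membrane. Complex V, the ATP synthase, lets the protons flow back and makes ATP. Most subunits are encoded in the nucleus and imported, while a small core of each proton-pumping complex is encoded in mitochondrial DNA. Skeletal muscle, which contains many mitochondria, replaces several subunits of complex IV (cytochrome c oxidase) by muscle forms: Cox6a2, Cox7a1 and Cox8b take the place of Cox6a1, Cox7a2 and Cox8a, which are found in most tissues.

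C2C12 is a mouse muscle precursor line that was derived from satellite cells, the stem cells of muscle, in the thigh of a C3H female aged 2 months. WT cells were compared with 1 clone of C2C12 Myod1-/- cells, in which CRISPR/Cas9 delivered by lentivirus, with puromycin selection, had disrupted Myod1, the gene of the transcription factor that starts muscle differentiation. Both genotypes were kept for 6 days in the serum-free medium Ndiff227 and harvested with trypsin, and RNA freed of rRNA was sequenced from 3 samples of each. In this medium the Myod1-/- cells formed floating spheres, while the paper reports fine myotubes from the WT cells. Genotype, clone and growth form therefore cannot be told apart, nor can the lentivirus and puromycin, which are described for the Myod1-/- cells only. No label tells whether the replicates come from separate cultures. The spread behind each p-value is thus the spread of these 6 samples alone, and may be technical.

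Values are FPKM, fragment counts divided by transcript length and by the number of mapped fragments, as the study deposited them. The step between the lowest values of genes with 1 transcript corresponds to about 64600000 to 73300000 reads a library. Myod1 stood at 17.3 to 27.7 FPKM in WT and at 0 to 0.0614 FPKM in Myod1-/- libraries. All 6 myotube markers examined (Acta1, Ckm, Myh3, Mylpf, Myog and Tnnc2) fell, and their summed level was 2657 to 2828 FPKM in WT and 0.143 to 0.401 FPKM in Myod1-/- libraries. Of 3 myoblast markers, Des and Cdh15 fell and Myf5 was not called, with sums of 305 to 382 FPKM and 19.4 to 20.6 FPKM. The 4 neural markers (Sox1, Sox2, Map2 and Tubb3) summed to 2.84 to 3.40 FPKM in WT and 0.526 to 0.580 FPKM in Myod1-/- libraries. Sox1 and Sox2 were barely detected in WT, at most at 0.0128 and 0.104 FPKM, and were at 0 in all Myod1-/- libraries. Tubb3 fell, from 2.15 to 2.66 FPKM in WT to 0.062 to 0.080 FPKM in Myod1-/- libraries, and Map2 was not called. Of the leukocyte markers, Cd68 rose while Ptprc was at most 0.0218 FPKM. The part of this shift between cell states in the results on the respiratory chain was not tested, and in bulk RNA fewer cells of a type and less RNA per cell cannot be told apart.

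Most of the respiratory chain genes were lower in Myod1-/- cells. A gene rose or fell where limma, fitted on log2(FPKM + 0.1) of the 14045 genes whose mean over the 6 libraries reached 0.5 FPKM, gave a Benjamini-Hochberg adjusted p under 0.05. Of the 89 respiratory chain genes tested, 70 fell (78.7%), against 33.3% of all genes tested. None rose by limma, against 27.9% of all genes, and 1, Atp5g2, was higher at an unadjusted p under 0.05 and was called after other scalings of the libraries (its values stand with complex V). The fold change was negative for 84 of the 89, and its median on the log2 scale was -0.52, while the median over all genes tested was -0.05. In 67 of the 89 genes every Myod1-/- library lay below every WT library, as in 36.5% of all genes, and in 1 gene every Myod1-/- library lay above, as in 31.4% of all genes. The 4 genes under the limit on the mean were Cox4i2, Cox6b2, Cox7b2 and Ndufa4l2.

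**Figure D1:**
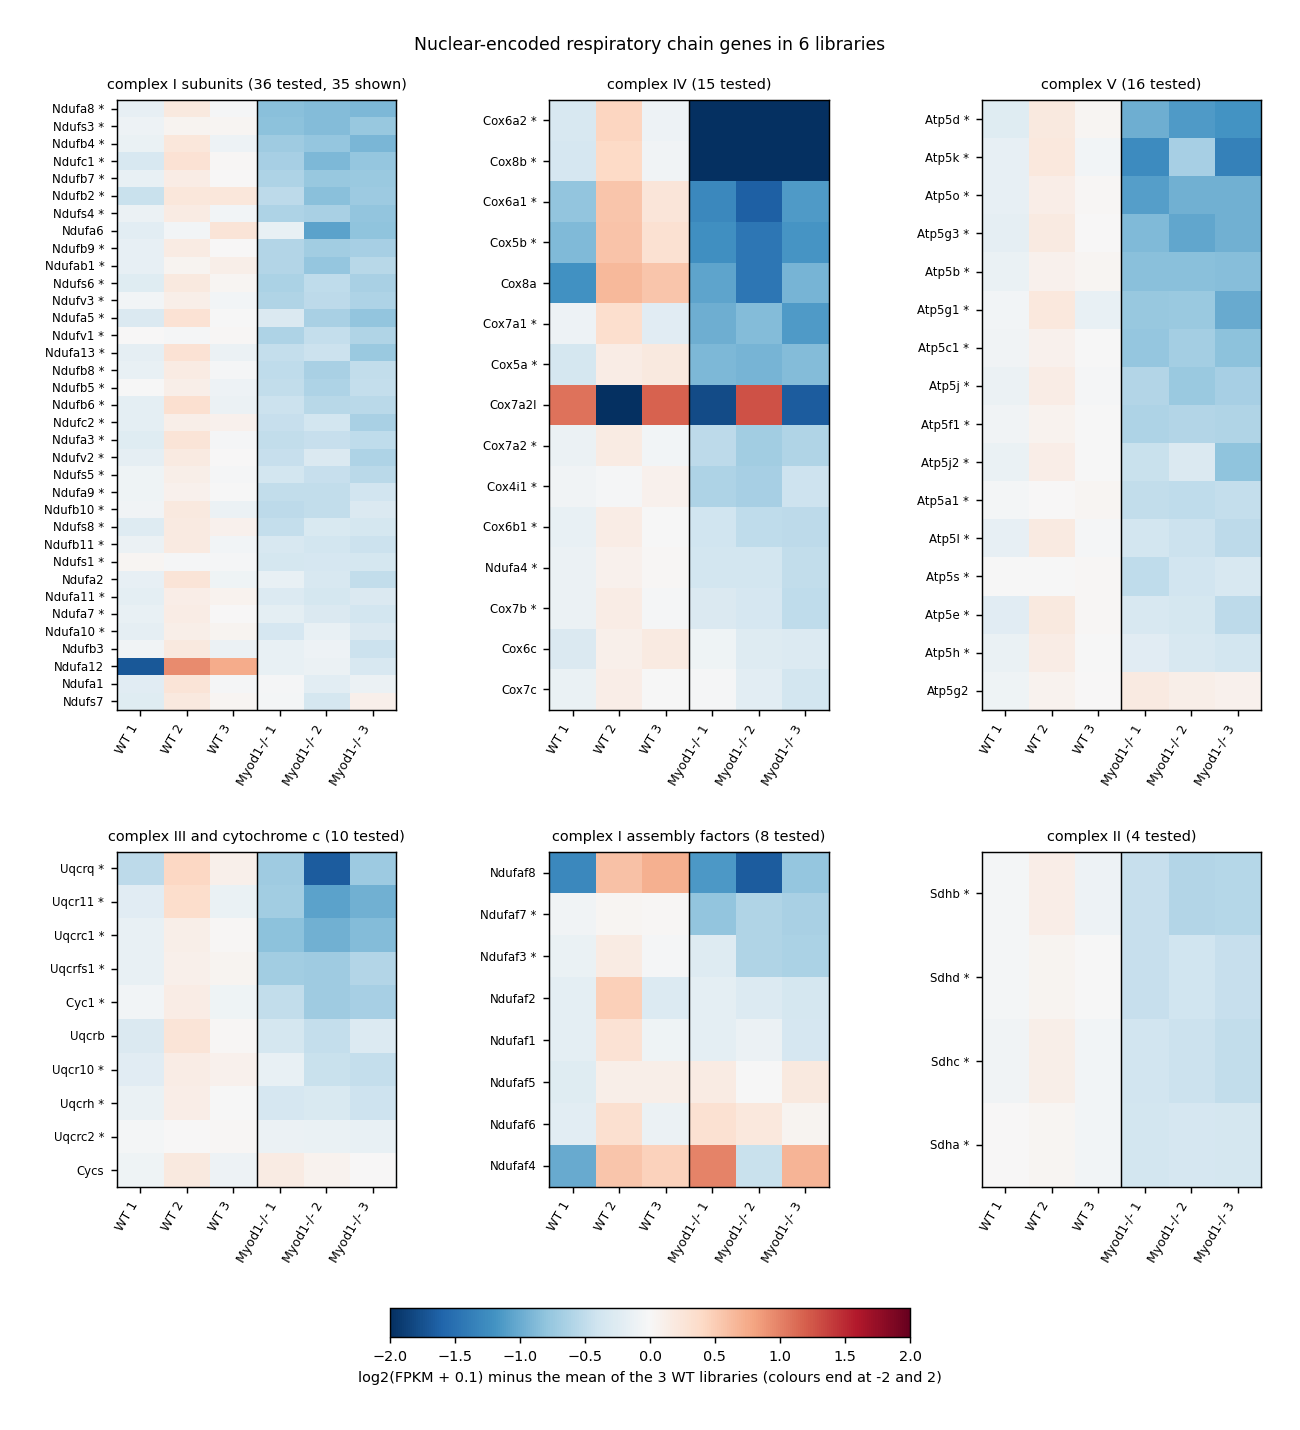
Level of 88 of the 89 tested respiratory chain genes in the 6 libraries, as log2(FPKM + 0.1) minus the mean of the 3 WT libraries, ordered by fold change within each group; a star marks a gene that fell (limma adjusted p under 0.05). Blue prevails in the Myod1-/- columns, while Cox7a2l and Ndufa12 split libraries of 1 genotype and Atp5g2 is above WT in all 3 Myod1-/- libraries.

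The decrease was present in every complex. All 4 genes of complex II fell, 15 of 16 of complex V, 30 of 36 subunits of complex I, 8 of 10 of complex III with cytochrome c, and 11 of 15 tested of complex IV. The median log2 fold changes were -0.44, -0.63, -0.50, -0.50 and -0.73 in this order. Of the assembly factors of complex I, 2 of 8 fell (25%, under the 33.3% of all genes tested), with a median of -0.24. Differences between these groups were not tested.

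**Figure D2:**
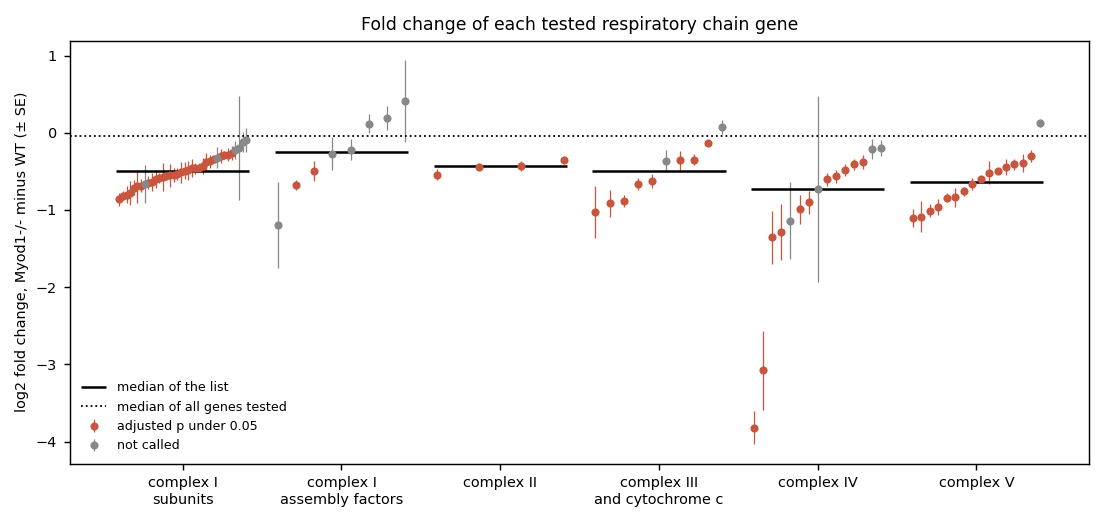
Log2 fold change (Myod1-/- minus WT) of each tested gene with its standard error from limma, grouped by complex; red points passed an adjusted p of 0.05, black bars are group medians and the dotted line is the median of all 14045 genes tested, -0.05. Cox6a2 and Cox8b stand lowest, at -3.82 and -3.08.

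The 3 muscle forms of cytochrome c oxidase fell, and with 0.1 FPKM added Cox6a2 and Cox8b had the most negative fold changes of the 89 genes. With 1 FPKM added Cox8b, at -1.26, no longer stood below Cox6a1, at -1.34. Cox6a2 (ENSMUSG00000030785; chromosome 7, - strand, 128205435 to 128206387 in GRCm38) encodes the heart and muscle form of subunit 6a. It was measured at 10.3, 17.4 and 12.004 FPKM in WT and at 0.756, 1.01 and 0.721 FPKM in Myod1-/- libraries. The genotypes did not overlap, and the mean fell from 13.2 ± 3.72 to 0.829 ± 0.158 FPKM (SD, n = 3 each), to 6.27% of WT, with a log2 fold change of -3.82 (SE 0.22, limma adjusted p = 1.46e-05). At the estimated depth these levels stand for about 451 to 775 reads in a WT library and 34 to 46 reads in a Myod1-/- library, so the transcript was still detected without Myod1.

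Cox8b (ENSMUSG00000025488; chromosome 7, - strand, 140898945 to 140900446) encodes the muscle form of subunit 8. It was measured at 1.33, 2.29 and 1.63 FPKM in WT, and at 0.159 and 0.280 FPKM in Myod1-/- replicates 1 and 3, while it was listed at 0 in replicate 2. These values correspond to about 31, 54 and 43 reads in WT and to 4, 0 and 7 reads in Myod1-/- libraries. The groups did not overlap, and the fitted log2 fold change was -3.08 (SE 0.51, limma adjusted p = 0.00213). With so few reads its size depends on the pseudocount: it was -1.26 with 1 FPKM added and -4.45 with 0.01 FPKM added, and the call held with both.

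Cox7a1 (ENSMUSG00000074218; chromosome 7, + strand, 30184144 to 30186078) encodes the muscle form of subunit 7a. It was measured at 1.16, 1.60 and 1.05 FPKM in WT and at 0.587, 0.642 and 0.512 FPKM in Myod1-/- libraries, again without overlap. Its log2 fold change was -0.99 (SE 0.19, limma adjusted p = 0.00415), so that Cox7a1 kept 45.8% of its WT mean where Cox6a2 kept 6.27%. Over the 15 alternatives that gave Cox7a1 a value, its log2 fold change ranged from -1.11 to -0.51, and the call held in each. Brown fat also uses Cox7a1 and Cox8b. Its marker Elovl3 was at 0 in 5 of the 6 libraries and at 0.0914 FPKM in WT replicate 3. It was the only 1 of 3 brown fat markers looked for that the gene table held, without Ucp1 and Cidea.

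The ubiquitous partners were far more abundant per length in both genotypes, and they were lower in Myod1-/- cells too. Cox7a2 was measured at 61.0, 73.5 and 63.7 FPKM in WT and 46.0, 40.8 and 43.2 FPKM in Myod1-/- libraries, and fell by 0.60 on the log2 scale (SE 0.08, limma adjusted p = 8.69e-04). Cox6a1 was measured at 91.9, 232 and 187 FPKM in WT and 65.2, 50.9 and 72.0 FPKM in Myod1-/- libraries. It fell by 1.35 on the log2 scale (SE 0.34, limma adjusted p = 0.0139), and by 1.75 without WT replicate 1, which was the lowest of the WT libraries by a wide margin. Cox8a was measured at 71.2, 259 and 241 FPKM in WT and 79.3, 60.6 and 86.2 FPKM in Myod1-/- libraries. Here WT replicate 1 lay among the Myod1-/- libraries, and Cox8a was not called (log2 fold change -1.14, SE 0.50, limma adjusted p = 0.0888). Without WT replicate 1 it was called, with a log2 fold change of -1.74 (limma adjusted p = 4.00e-04).

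**Figure D3:**
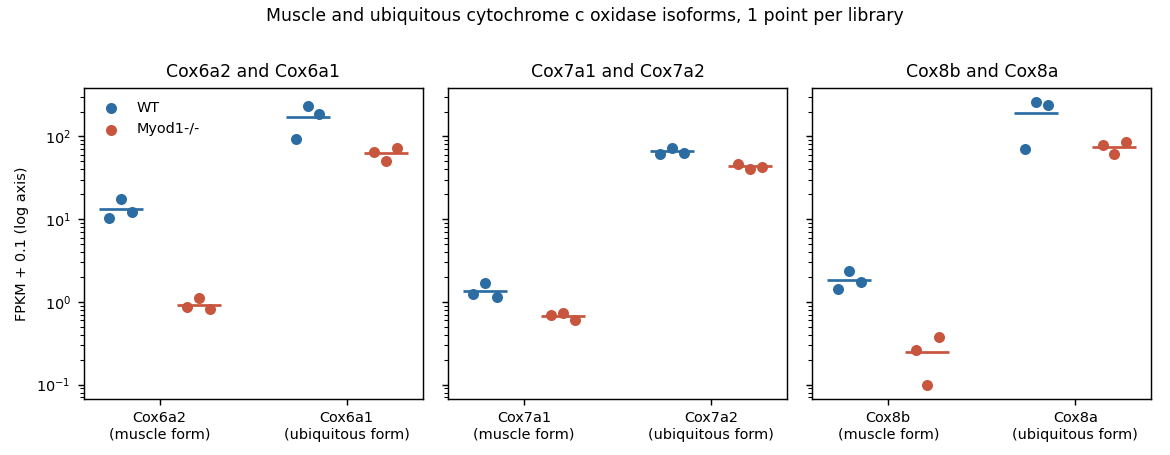
FPKM + 0.1 on a log axis of the muscle and the ubiquitous form of 3 subunits of cytochrome c oxidase, with 1 point per library and a line at the mean of each genotype. The muscle forms of subunits 6a and 8 separate widely between genotypes, while Cox8a overlaps because WT replicate 1 stands at 71.2 FPKM.

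With nothing added, a ratio inside a library does not depend on the scaling between libraries. The log2 ratios had 0.1 FPKM added to both genes, so those of genes with low values do depend on it. Cox6a2 stood at 11.2, 7.51 and 6.41% of the FPKM of Cox6a1 in WT and at 1.16, 1.99 and 1.001% in Myod1-/- libraries. The log2 ratio was lower by 2.47 in Myod1-/- cells, and the groups did not overlap. Cox8b stood at 1.87, 0.884 and 0.676% of Cox8a in WT and at 0.200, 0 and 0.325% in Myod1-/- libraries, a difference of -1.94 in the log2 ratio, also without overlap. For both, the exact two-sided permutation test over the 6 libraries gave p = 0.10, the smallest it can give with 3 against 3, and 0.20 after adjustment over the 10 ratios and shares compared.

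For Cox7a1 and Cox7a2 the result depended on the pseudocount. Cox7a1 stood at 1.90, 2.18 and 1.64% of Cox7a2 in WT and at 1.28, 1.57 and 1.19% in Myod1-/- libraries, and these percentages, with nothing added, did not overlap. The log2 ratio with 0.1 FPKM added differed by -0.39 and overlapped between the genotypes (exact permutation p = 0.20, adjusted 0.25), and the difference turned to 0.08 with 1 FPKM added, an amount close to the level of Cox7a1 itself.

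The other tissue forms were barely expressed. Cox4i2, a lung form of subunit 4, ranged from 0 to 0.252 FPKM, Cox6b2, a testis form of subunit 6b, from 0.0516 to 0.165 FPKM, and Ndufa4l2, a form of Ndufa4 known for its induction in low oxygen, from 0.105 to 0.404 FPKM. Cox7b2, a testis form of subunit 7b, was listed at 0 in WT replicate 1 and reached 0.554 FPKM in WT replicate 3. In these 4 genes the genotypes overlapped. Their partners Cox4i1, Cox6b1, Cox7b and Ndufa4 fell by 0.57, 0.48, 0.38 and 0.41 on the log2 scale, each with genotypes that did not overlap (limma adjusted p = 9.51e-04, 0.00237, 0.0105 and 0.00268). Cox4i1, the regulatory subunit that most tissues use, was among the most abundant genes of complex IV with 130, 135 and 145 FPKM in WT and 89.0, 85.7 and 103 FPKM in Myod1-/- libraries.

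The promoters of the isoforms are shown because these pairs carry the comparison of muscle with ubiquitous forms. Sequences of the 250 bases before the RefSeq start site (GRCm38.p6) were found for 77 of the 93 genes, Cox6a2 not among them. They were searched on both strands for an E-box (CAGCTG), the kind of site that MYOD1 and other myogenic factors bind, the core of NRF1 sites (GCGCATGC) and the core of ETS sites (CCGGAAG), which GABPA binds. NRF1 and GABPA are factors known for regulating respiratory chain genes. Matches are in capitals in the sequences that follow, given 5′ to 3′ in the direction of the gene.
Cox8b, chr7:140900447-140900696, - strand: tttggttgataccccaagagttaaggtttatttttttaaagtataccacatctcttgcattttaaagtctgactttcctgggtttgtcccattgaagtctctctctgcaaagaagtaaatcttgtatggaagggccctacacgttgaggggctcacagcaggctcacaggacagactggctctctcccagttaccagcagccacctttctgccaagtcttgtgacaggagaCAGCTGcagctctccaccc
Cox8a, chr19:7217617-7217866, - strand: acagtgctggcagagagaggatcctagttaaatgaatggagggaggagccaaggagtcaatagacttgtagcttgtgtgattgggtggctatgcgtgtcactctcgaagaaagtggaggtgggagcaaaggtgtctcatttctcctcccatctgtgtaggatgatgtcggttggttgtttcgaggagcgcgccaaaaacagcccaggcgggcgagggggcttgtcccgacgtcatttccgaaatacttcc
Cox7a1, chr7:30183921-30184170, + strand: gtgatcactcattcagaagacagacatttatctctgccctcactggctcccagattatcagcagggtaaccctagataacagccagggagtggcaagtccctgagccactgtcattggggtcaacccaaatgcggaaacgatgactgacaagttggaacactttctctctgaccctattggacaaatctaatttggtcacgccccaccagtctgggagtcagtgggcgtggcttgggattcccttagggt
Cox6a1, chr5:115348959-115349208, - strand: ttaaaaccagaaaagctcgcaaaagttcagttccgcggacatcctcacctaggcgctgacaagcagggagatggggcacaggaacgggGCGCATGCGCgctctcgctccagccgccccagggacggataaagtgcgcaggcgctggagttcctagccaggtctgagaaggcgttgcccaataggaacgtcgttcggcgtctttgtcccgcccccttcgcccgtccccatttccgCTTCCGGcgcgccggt

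The window of Cox8b held 1 E-box, 19 bases before the start, and no NRF1 or ETS core. The window of Cox6a1 held the NRF1 core on both strands in 1 run of overlapping bases and an ETS core, 16 bases before the start. Cox8a and Cox7a1 held none of the letters searched for, and neither did the window of Cox7a2, which is not printed. The NRF1 core was found in 10 of the 77 promoters (13.0%), against 2.32% of the 27025 mouse promoters in the table and 4.65% of the promoters of genes tested. The ETS core was found in 13 (16.9%, against 7.05% and 14.5%) and the E-box in 6 (7.79%, against 12.8% and 11.6%). The 6 genes with an E-box, Atp5b, Cox8b, Ndufa8, Ndufb10, Ndufs5 and Ndufv2, all fell, as did 54 of the 69 tested without one. Of the genes with the NRF1 core 6 of 10 fell, and of the 65 tested without it 54. A match is a description of the letters and not a binding site.

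Among the further subunits of complex IV, Cox5a and Cox5b, which surround the catalytic core, fell by 0.90 and 1.28 on the log2 scale (limma adjusted p = 0.00202 and 0.0213). They were chosen after their values were seen. Cox5b was measured at 12.6, 34.8 and 28.7 FPKM in WT and at 9.88, 8.52 and 10.2 FPKM in Myod1-/- libraries, so that WT replicate 1 came close to the Myod1-/- libraries. Its call was lost without WT replicate 2 or 3, or Myod1-/- replicate 1 or 2 (limma adjusted p from 0.0505 to 0.0685). The small subunits Cox6c and Cox7c were not called, at -0.21 and -0.20.

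In complex V the subunits of every part of the enzyme fell except 1 gene for the c subunit. The F1 head and central stalk, where ATP is made, had 5 of 5 genes lower, the peripheral stalk 4 of 4, and the membrane subunits Atp5j2, Atp5k and Atp5l 3 of 3. Some of these calls were lost in other fits. Atp5e, in the head and stalk, was not called without WT replicate 2 or 3 or Myod1-/- replicate 2 or 3. Atp5h, in the peripheral stalk, was not called without Myod1-/- replicate 2 or 3, nor Atp5j2 without WT replicate 2 or 3. The call of Atp5j2 was also lost after centring on transcript length, and that of Atp5c1 with summed transcript values. Atp5b, the catalytic beta subunit, was measured at 201, 234 and 226 FPKM in WT and at 123, 123 and 122 FPKM in Myod1-/- libraries. It fell to 55.6% of WT (log2 fold change -0.84, SE 0.06, limma adjusted p = 4.26e-05), with Myod1-/- libraries that differed by less than 1 FPKM. Its partner in the head, the alpha subunit Atp5a1, was measured at 194, 201 and 204 FPKM in WT and 142, 141 and 143 FPKM in Myod1-/- libraries, a smaller decrease to 71.1% (log2 fold change -0.49, SE 0.04, limma adjusted p = 4.99e-05).

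The largest decreases in complex V were those of Atp5d, Atp5k and Atp5o. Atp5d, the delta subunit of the central stalk, was measured at 65.5, 88.1 and 79.4 FPKM in WT and 38.9, 34.9 and 33.8 FPKM in Myod1-/- libraries (log2 fold change -1.10, SE 0.12, limma adjusted p = 2.50e-04). Atp5o, the subunit that ties the peripheral stalk to the head, was measured at 48.0, 58.6 and 54.7 FPKM and 25.0, 27.4 and 27.4 FPKM (-1.01, SE 0.08, limma adjusted p = 7.88e-05). Atp5k, the e subunit known for holding enzyme dimers together, was measured at 14.6, 19.0 and 15.7 FPKM and 6.75, 10.3 and 6.34 FPKM (-1.09, SE 0.20, limma adjusted p = 0.00341). In all 3 genes every Myod1-/- library was below every WT library.

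The proton-carrying ring of complex V is built from copies of the c subunit, for which mammals have 3 genes, Atp5g1, Atp5g2 and Atp5g3, that differ in the peptide removed on import. Atp5g3 was measured at 65.1, 84.0 and 74.6 FPKM in WT and 40.3, 36.0 and 38.0 FPKM in Myod1-/- libraries, and fell by 0.96 (SE 0.10, limma adjusted p = 2.17e-04). Atp5g1 was measured at 7.57, 9.15 and 7.13 FPKM and 4.63, 4.67 and 3.88 FPKM, and fell by 0.84 (SE 0.12, limma adjusted p = 0.00110). Atp5g2 stood apart from both with 88.5, 98.5 and 94.8 FPKM in WT and 106, 102 and 100.1 FPKM in Myod1-/- libraries. All 3 Myod1-/- libraries were above the WT libraries, by little: the log2 fold change was 0.13 (SE 0.05), which was not called (limma adjusted p = 0.0692). It was called as higher, at 0.16 to 0.27, in 4 of the other scalings tried and without WT replicate 2.

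Within the summed FPKM of the 3 genes, Atp5g2 took 54.9, 51.4 and 53.7% in WT and 70.3, 71.5 and 70.5% in Myod1-/- libraries. The share of Atp5g3 was 40.4, 43.8 and 42.2% in WT and 26.7, 25.2 and 26.8% in Myod1-/- libraries, and that of Atp5g1 was 4.04 to 4.77% and 2.73 to 3.28%. No share overlapped between the genotypes. The Atp5g2 share was higher by 17.4 percentage points, and by exact permutation p = 0.10, the smallest possible, for each of the 3 shares (0.20 adjusted over the 10 ratios and shares). The summed FPKM of the 3 genes was 161 to 192 in WT and 142 to 151 in Myod1-/- libraries, so the higher share of Atp5g2 stood in a smaller sum.

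**Figure D4:**
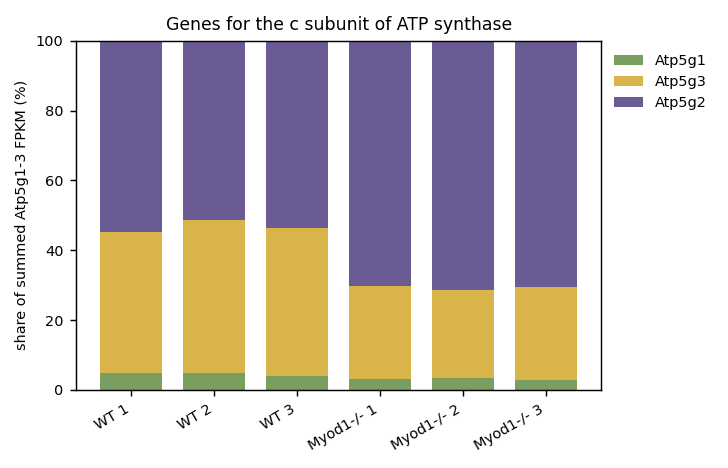
Share of each of the 3 genes for the c subunit of ATP synthase in their summed FPKM, in percent, for each library. The Atp5g2 share was 51.4 to 54.9% in WT and 70.3 to 71.5% in Myod1-/- libraries.

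In complex I all 36 subunits had a negative fold change, from -0.86 to -0.09 on the log2 scale. Of the 7 core subunits, which carry the flavin and the iron-sulfur clusters, 6 fell with a median over the 7 of -0.38, and of the 29 accessory subunits 24 fell with a median over the 29 of -0.53. Ndufs3, a core subunit next to the quinone site, was measured at 22.3, 24.9 and 24.5 FPKM in WT and 13.5, 13.0 and 14.0 FPKM in Myod1-/- libraries, a decrease of 0.81 (SE 0.06, limma adjusted p = 4.66e-05). Every Myod1-/- library of Ndufs3 lay below every WT library. The exception among the core subunits was Ndufs7, at -0.09 (SE 0.15) with overlapping libraries. The call of the core subunit Ndufs8 was lost without WT replicate 2 or 3 or any 1 of the Myod1-/- libraries (limma adjusted p from 0.0507 to 0.0865). It was also lost after centring on transcript length. Among the accessory subunits, the calls of Ndufa5, Ndufa7, Ndufa10, Ndufa11 and Ndufb2 were each lost without WT replicate 2, WT replicate 3 or Myod1-/- replicate 3.

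The accessory subunits with the largest decreases were Ndufa8 and Ndufb4, both part of the membrane arm. Ndufa8 was measured at 70.3, 90.0 and 77.1 FPKM in WT and 44.2, 43.2 and 42.3 FPKM in Myod1-/- libraries (log2 fold change -0.86, SE 0.09, limma adjusted p = 2.41e-04). Ndufb4 was measured at 19.1, 24.7 and 19.7 FPKM and 12.8, 12.2 and 11.1 FPKM (-0.80, SE 0.11, limma adjusted p = 9.76e-04). Ndufb9, another subunit of the membrane arm, fell by 0.65 with 80.0, 99.9 and 90.0 FPKM in WT and 59.6, 55.3 and 56.8 FPKM in Myod1-/- libraries.

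Assembly factors of complex I help build the enzyme and are not part of it. Of the 8, 2 fell (25%), against 33.3% of all genes tested. Ndufaf7, a methyltransferase, was measured at 11.3, 12.1 and 12.1 FPKM in WT and 6.79, 7.78 and 7.53 FPKM in Myod1-/- libraries, and fell by 0.68 (SE 0.07, limma adjusted p = 2.18e-04). Ndufaf3 fell by 0.50 (SE 0.13, limma adjusted p = 0.0153). Its call was lost without Myod1-/- replicate 2 (limma adjusted p = 0.0508). Ndufaf1 was measured at 5.77, 8.12 and 6.26 FPKM and 5.78, 6.12 and 5.22 FPKM, with overlap and no call. Ndufaf4, Ndufaf5 and Ndufaf6 had positive fold changes of 0.41, 0.12 and 0.19 that were not called.

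Complex II is also the succinate dehydrogenase of the citric acid cycle, and its 4 genes changed to a similar extent. The flavoprotein Sdha was measured at 55.8, 57.0 and 53.6 FPKM in WT and 42.8, 43.9 and 43.2 FPKM in Myod1-/- libraries. The log2 fold changes of Sdha, the iron-sulfur subunit Sdhb and the membrane anchors Sdhc and Sdhd were -0.36, -0.54, -0.43 and -0.44, with limma adjusted p from 1.65e-04 to 0.00134. In each of the 4 genes every Myod1-/- library lay below every WT library. The call of Sdhc rests on the gene values. Summed transcript values gave a log2 fold change of 1.21 that was not called.

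In complex III the core subunits Uqcrc1 and Uqcrc2, which form a pair in the matrix, changed to different extents. Uqcrc1 was measured at 34.2, 41.2 and 38.8 FPKM in WT and 21.4, 19.5 and 20.7 FPKM in Myod1-/- libraries, a decrease of 0.89 (SE 0.08, limma adjusted p = 1.06e-04). Uqcrc2, chosen after its values were seen, was measured at 40.0, 41.6 and 42.1 FPKM and 37.9, 37.4 and 37.3 FPKM, a decrease of 0.13 (SE 0.04, limma adjusted p = 0.0223). The call of Uqcrc2 was lost without WT replicate 3 or any 1 of the Myod1-/- libraries (limma adjusted p from 0.0593 to 0.0738), and in all in 9 of the 16 alternatives, among them rescaling each library to the same total and centring on transcript length. The ratio of the pair was not tested. Cyc1, the cytochrome c1 subunit, fell by 0.62 with 54.3, 62.9 and 53.2 FPKM in WT and 40.2, 34.5 and 35.5 FPKM in Myod1-/- libraries (limma adjusted p = 9.98e-04).

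The small subunits of complex III were less uniform. Uqcr11 was measured at 35.3, 53.0 and 37.9 FPKM in WT and 25.5, 19.6 and 21.2 FPKM in Myod1-/- libraries (log2 fold change -0.91, SE 0.17, limma adjusted p = 0.00390), and Uqcrh, the hinge protein that binds cytochrome c1, fell by 0.35. Uqcrq was measured at 18.8, 36.3 and 29.3 FPKM and 16.6, 8.52 and 16.4 FPKM. Its decrease of 1.03 (SE 0.34, limma adjusted p = 0.0355) was not called without WT replicate 2 or 3 or Myod1-/- replicate 2 (limma adjusted p from 0.0743 to 0.107), and was lost in 7 of the 16 alternatives in all, among them centring on transcript length and no filter on low values. Uqcr10 was measured at 57.8, 74.3 and 71.3 FPKM and 60.5, 49.7 and 48.5 FPKM, with overlap, and its call (limma adjusted p = 0.0443) was lost without WT replicate 2 or 3 or Myod1-/- replicate 2 or 3 (limma adjusted p from 0.122 to 0.127). In all it was lost in 9 of the 16 alternatives, the same 2 and rescaling to the same total among them. Cycs, cytochrome c itself, which carries electrons from complex III to complex IV and also acts in apoptosis, was measured at 13.9, 16.8 and 13.7 FPKM in WT and 16.5, 15.5 and 14.8 FPKM in Myod1-/- libraries, so it did not follow the complexes it connects (log2 fold change 0.08, SE 0.09, not called).

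Libraries of 1 genotype differed in a way that bears on these genes. Of the 3 WT libraries, replicate 2 was the highest for 74 of the 89 genes (83.1%), against 36.9% of all genes tested, and replicate 1 was the lowest for 75 of the 89 (84.3%), against 37.8%. The median deviation of the 89 genes from their mean was 0.11, 0.41 and 0.26 on the log2 scale in WT replicates 1, 2 and 3 and -0.22, -0.26 and -0.30 in Myod1-/- replicates 1, 2 and 3. The medians of the genotypes did not overlap. Without WT replicate 1, 75 genes fell and none rose; without WT replicate 2, 59 fell and Atp5g2 and Ndufaf6 rose.

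A spread of more than 2-fold between libraries of 1 genotype, or a value of 0, was seen in 8 of the 89 genes, against 12.3% of all genes tested. They were Cox5b, Cox6a1, Cox7a2l, Cox8a, Cox8b, Ndufa12, Ndufaf4 and Ndufaf8. Cox7a2l, known for joining complexes III and IV into supercomplexes, was measured at 72.2, 6.99 and 77.3 FPKM in WT and at 9.72, 82.4 and 10.6 FPKM in Myod1-/- libraries, so that the 6 libraries fell into a high and a low set that cut across genotype. Ndufa12, an accessory subunit of complex I, stood at 3.24 FPKM in WT replicate 1 against 20.7 and 17.9 FPKM in the other WT libraries and 8.54 to 9.83 FPKM in Myod1-/- libraries. It was not called, but fell by 1.04 without WT replicate 1 (limma adjusted p = 4.06e-04). Ndufaf8, an assembly factor, behaved alike, with 2.19, 8.36 and 9.08 FPKM in WT and 2.43, 1.68 and 3.18 FPKM in Myod1-/- libraries, and was called without WT replicate 1 (log2 fold change -1.84, limma adjusted p = 0.00224). How reads that fit several places in the genome were counted is not given in the sources used here, and the cause of these spreads was not tested.

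Respiratory chain transcripts are short, with a median length of 861 nt among the 89 genes against 2355 nt among all genes tested with a known length. Of the 54 genes under 1000 nt, 41 fell (75.9%, median log2 fold change -0.51), against 28.4% and a median of -0.12 for all genes of that length. Of the 35 longer genes, 29 fell (82.9%, median -0.53), against 34.6% and -0.04. When each library was centred on its own trend with transcript length, 64 of the 89 genes fell, 1 rose (Atp5g2), and the median was -0.39.

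The transcript table divides each gene among its annotated forms. For 73 genes with several transcripts and a mean of at least 1 FPKM in each genotype, 114 transcripts held at least 10% of the summed transcript FPKM. The share of 35 of them (30.7%) did not overlap between genotypes, against 20.1% for transcripts of all genes. By exact permutation the smallest p was 0.10, and 0.33 after adjustment over the 114, so no single share passed. The share of the most abundant transcript was lower in all 3 Myod1-/- libraries in 23 of the 73 genes (31.5%), against 15.0% of all genes. It was higher in all 3 in 2 of the 73, against 594 of all 8893 genes compared.

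In 3 of these genes, chosen after their values were seen, the protein-coding transcript was lower while a transcript without a full coding role was not. For Ndufs4, an accessory subunit of complex I, the coding transcript (ENSMUST00000022286) was measured at 20.5, 24.7 and 21.6 FPKM in WT and 12.7, 12.6 and 11.6 FPKM in Myod1-/- libraries. A transcript (ENSMUST00000225035) annotated as a target of nonsense-mediated decay, went from 4.94, 6.25 and 4.11 FPKM to 7.96, 7.38 and 5.91 FPKM and from 15.7 to 19.7% to 33.0 to 38.1% of the gene. For Uqcr10 the coding transcript (ENSMUST00000058407) was measured at 64.4, 82.4 and 80.7 FPKM in WT and 56.5, 45.6 and 43.0 FPKM in Myod1-/- libraries, while the non-coding one (ENSMUST00000151559) had 10.5, 14.8 and 12.6 FPKM and 20.1, 17.2 and 18.1 FPKM, without overlap in either. For Sdhb the coding transcript (ENSMUST00000010007) was measured at 12.9, 11.3 and 11.5 FPKM and 3.16, 4.34 and 4.85 FPKM, while the non-coding ones overlapped between genotypes. Such forms differ by few exons, so their values are estimates that a gene's reads are divided into.

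**Figure D5:**
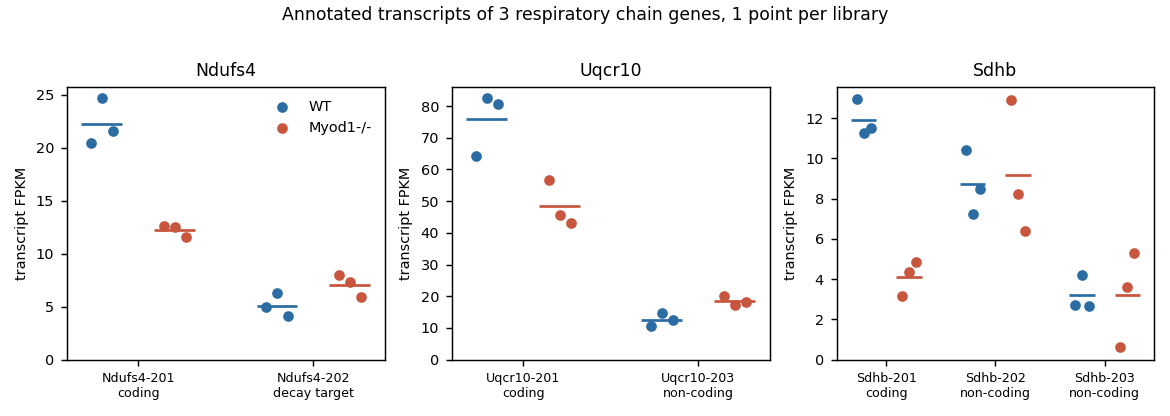
FPKM of the annotated transcripts with at least 10% of the summed transcript FPKM of Ndufs4, Uqcr10 and Sdhb, with 1 point per library and a line at the mean of each genotype. The coding transcripts are lower in the Myod1-/- libraries, while the decay target of Ndufs4 and the non-coding transcript of Uqcr10 are not.

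Tissue-specific splicing is known for Atp5c1, the gamma subunit of complex V, and for Ndufv3, a subunit of complex I with a long and a short form. The gene values of both fell, by 0.76 and 0.58 on the log2 scale (limma adjusted p = 5.08e-05 and 3.04e-04). For Ndufv3 the short form held 65.4, 64.9 and 62.7% of the gene in WT and 64.0, 58.6 and 63.2% in Myod1-/- libraries, which overlapped (exact permutation p = 0.30). For Atp5c1 the main transcript held 71.4 to 97.3% in WT and 54.5 to 94.4% in Myod1-/- libraries, a spread within each genotype that was wider than the difference of -9.17 percentage points. A change in the splicing of either gene was not detectable in these estimates. For Sdhc the main transcript was listed at 0 in WT replicate 3, where the gene itself stood at 42.6 FPKM, so its shares say nothing about the genotypes.

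Other genes of mitochondrial energy metabolism were counted from lists of their own, against the same background of 33.3% that fell and 27.9% that rose. Of 35 further assembly factors of complexes I to V, 15 fell, 3 (Cox10, Sco2 and Ttc19) rose and 17 were not called, with a median log2 fold change of -0.28. Of 13 genes of the citric acid cycle, 10 fell and none rose by limma, nor at an unadjusted p under 0.05 (0 of 13), with a median of -0.59. Among them was Cs, citrate synthase, at 52.7, 52.1 and 50.1 FPKM in WT and 31.4, 31.8 and 30.8 FPKM in Myod1-/- libraries. Outer membrane, import and matrix chaperone genes went both ways: 4 of 13 fell, among them the channel Vdac1 (log2 fold change -0.54, SE 0.05), and 4 rose, among them the chaperones Hspd1 (0.28, SE 0.04) and Hspa9 (0.26, SE 0.04). The lower level was thus not shared by all nuclear genes for mitochondrial proteins.

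Of the 13 protein-coding genes of mitochondrial DNA, 11 fell, with a median log2 fold change of -1.18, while mt-Co1, the most abundant, was not called. Nor was mt-Atp6, which stood at 363, 365 and 2216 FPKM in WT and 1348, 1363 and 1369 FPKM in Myod1-/- libraries (log2 fold change 1.03), with WT replicate 3 apart from the other WT libraries. Among the regulators, Gabpa and Tfam fell by 0.32 and 0.39 (limma adjusted p = 8.96e-04 and 0.00358), Nrf1, Esrra and Ppargc1b were not called, and Ppargc1a, at 0.249 to 0.496 FPKM, was under the limit on the mean.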

How the data were processed

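RNA from 3 C2C12 WT and 3 C2C12 Myod1-/- samples was measured after 6 days of culture. The FPKM tables of 28892 genes and 92513 transcripts were computed by the authors and deposited; the submitters' processing notes name bcl2fastq, fastp, FastQC, HISAT2, TopHat and the build GRCm38, and the paper StringTie, with versions not given in the sources used here. FPKM hold no counts, so no count model was used. Columns were matched to samples through a headed table of the study, in which the 3200 genes matched by symbol had the same values in each of the 6 columns to a relative difference of 0.001.

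Values were analysed as log2(FPKM + 0.1), so folds of low genes are understated, with R 4.3.3, limma 3.58.1 (eBayes with a trend, genotype only, two-sided) and Python 3.11.15 with scipy 1.17.1, over the 14045 genes whose mean reached 0.5 FPKM. The fit was tested on simulated data. Ratios and shares were compared by exact permutation. A transcript's share is its part of the summed FPKM of the gene's annotated transcripts, because this sum was 0.113 to 10.2 times the gene value among the 89 genes tested; 11474 assembled transcripts without an identifier were left out. Levels of different genes are therefore comparable only as far as the gene lengths the authors used. Lengths and transcript types came from GENCODE M21, promoters from RefSeq (GRCm38.p6).

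The genes and lists were chosen with earlier results of these data known. Named were the tissue isoforms with their partners and, in each group, up to 3 genes with the highest mean, up to 3 with the largest change among those called, and those under the limit; others were chosen after their values were seen, and a few genes the rule names are not reported here. Alternatives were other pseudocounts, filters and scalings, centring on transcript length, a replicate block, leaving out each library, and, added after seeing the data, summed transcript values. Protein sequences were not used here.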

Additional observations from a re-analysis of the deposited data

How the results depend on the processing

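The count of respiratory chain genes that fell, 70 of 89, ranged from 54 to 72 over the alternatives other than leaving out a library, with 54 from summed transcript values (chosen after seeing the data), and from 57 to 75 with 1 library left out. The count that rose, 0, became 1 (Atp5g2) after rescaling each library to the same total, after quantile normalization, after leaving out mitochondrially encoded genes and after centring on transcript length, and ranged from 0 to 2 with 1 library left out. With a replicate block 63 fell and 0 rose; replicates of the same number did not deviate together (correlations of -0.10, -0.14 and -0.03 for numbers 1, 2 and 3), so they share only a number. Of the 37 tested genes that the rule for naming chose, 27 kept direction and call under every one of the 16 alternatives that gave them a value. Cox5b, Uqcrc2 and Atp5c1, discussed above, are not among the 37. Cox7a1 and Cox8b, among these 27, had 15, since the filter at 1 FPKM leaves them out. With summed transcript values the log2 fold change of Sdhc turned to 1.21, and of the 37 genes Cyc1, Cox6b1, Cox7b, Uqcr10 and Uqcrq were no longer called, at -0.98, -0.45, -0.01, -0.40 and -0.96. Of the 89 genes, 16 lost their call with these values, Atp5c1 and Uqcrc2 among them. The cause was not tested.

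The log2 ratio of Cox7a1 to Cox7a2 turned from -0.39 to 0.08 with a pseudocount of 1 FPKM. Ratios of barely expressed forms also changed sign: Cox4i2/Cox4i1 from -0.03 to 0.45 and Ndufa4l2/Ndufa4 from -0.27 to 0.22 with 1 FPKM, and Cox6b2/Cox6b1 from 0.11 to -0.22 with 0.01 FPKM. With 1 library left out these ranged from -0.39 to 0.35 for Cox4i2/Cox4i1 and from -0.04 to 0.21 for Cox6b2/Cox6b1. Transcript shares without overlap, 35, were 28 with a gene mean of at least 5 FPKM and 39 to 57 with 1 library left out, where fewer libraries make a lack of overlap easier. Depth limits Cox8b, with 0 to 7 estimated reads in Myod1-/- libraries, and the 4 genes that were not tested. Cox7a1 was also low, at 0.512 to 0.642 FPKM in Myod1-/- libraries, and having 2 transcripts it was given no read estimate.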
